A study of Homo sapiens with 34 samples.

Results

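The thioredoxin system was followed through 8 genes among the 28690 loci of the RNA-seq tables, taken as the loci whose gene name holds the symbol of a member: the thioredoxins *TXN* and *TXN2*, the thioredoxin reductases *TXNRD1* and *TXNRD2*, the inhibitor *TXNIP* and its closest relative *ARRDC4*, and the glutaredoxins *GLRX* and *GLRX2*. Each member matched 1 locus, and all 8 were among the 15339 loci with a mean FPKM of at least 0.5 over the 24 libraries, the set used in every test. Every sample came from the *Bmal1*:*luc* line of U2OS, human osteosarcoma cells that stably carry a luciferase reporter under the *Bmal1* promoter. After a dexamethasone shock to align their clocks, the cells received 5 mM 6AN (6-aminonicotinamide), which blocks the NADPH-producing enzymes of the pentose phosphate pathway (PPP), or the solvent DMSO as control. RNA depleted of ribosomal RNA was sequenced every 4 hr from 0 to 44 hr by the labels, with 1 library for each of the 12 time points and 2 conditions. The study's plots begin at 24 hr where the labels begin at 0 hr, and label hours are used here. The length of 6AN treatment at label 0 hr is not given in the sources used here, so label hours are not read as hours of treatment. ChIP-seq was done in the same cells after 24 hr of 6AN or DMSO, with 1 library per condition for BMAL1, CLOCK, H3K4me3, H3K9ac, and input.

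Thioredoxins are small proteins that reduce disulfides in other proteins, and thioredoxin reductases, which are selenoproteins, restore them with electrons from NADPH. The cytosolic pair is *TXN* and *TXNRD1*, and the mitochondrial pair is *TXN2* and *TXNRD2*. Glutaredoxins act on glutathione-bound cysteines and take their electrons from glutathione, which also depends on NADPH. TXNIP is an alpha-arrestin that binds reduced thioredoxin and limits glucose uptake, and ARRDC4 is an alpha-arrestin that also limits glucose uptake. The genes of both are textbook targets of the glucose-sensing factors MondoA and ChREBP, which bind paired E-box-like sequences, and *TXNRD1* is a textbook target of the oxidative stress factor NRF2.

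FPKM (fragments per length of transcript and per mapped fragments of the library) corrects for length, so levels can be set side by side between genes, but the authors normalized the control table and the 6AN table separately. Levels are therefore described across conditions and were not tested, and tests were made for change over time within a table and for the difference of that change between conditions. With no replicate libraries, an SD is the spread over the 12 time points of a condition, and p-values measure the spread of single libraries around a fitted line and 24 hr cosine. In a bulk culture, fewer cells that express a gene cannot be told apart from less RNA per cell. Depth was known only relative to the other libraries of a table, from 0.581 to 1.31 times the table's median in control and from 0.697 to 1.55 times in 6AN, so no counting error is given for FPKM. Of 8 osteoblast lineage markers, *SPARC* and *COL1A1* were abundant, with mean FPKM of 323 and 128 in control and 129 and 33.9 in 6AN, while *SP7* and *COL1A2* were below 0.05 in both conditions. Of the 6 osteoblast markers above the filter, 2 lay wholly below control (9.57% of all loci did), and in 6AN 4 fell and 1 rose by the trend test (11.8% and 9.83% of all loci). *BGLAP*, among those that fell, was read from a locus merged with *PMF1*. Among 6 markers of other cell types, the macrophage gene *CD68* was the highest with a mean of 3.51 in control and 6.21 in 6AN, *EPCAM* was at 1.02 and 0.734, and the other four were below 0.6. The part of these markers in the members' differences was not tested.

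The promoters of *TXNIP* and *ARRDC4* are shown because these genes had the largest level differences of the members and because *TXNIP* was the member with a shared BMAL1/CLOCK site. The windows run from 250 bases before to 50 bases after the transcription start in RefSeq (GRCh38.p14) and are written 5′ to 3′ in the direction of the gene. Capitals mark the E-box CACGTG and the variant CACGAG, searched on both strands. The *TXNIP* window is chr1:145996530-145996829 on the minus strand, and the *ARRDC4* window is chr15:97960453-97960752 on the plus strand.
TXNIP: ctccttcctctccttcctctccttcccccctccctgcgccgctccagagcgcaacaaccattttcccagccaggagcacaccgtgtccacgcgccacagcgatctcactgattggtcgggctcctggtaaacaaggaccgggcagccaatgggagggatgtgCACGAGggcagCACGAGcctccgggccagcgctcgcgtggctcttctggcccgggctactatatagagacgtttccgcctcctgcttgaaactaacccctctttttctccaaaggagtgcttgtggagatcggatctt
ARRDC4: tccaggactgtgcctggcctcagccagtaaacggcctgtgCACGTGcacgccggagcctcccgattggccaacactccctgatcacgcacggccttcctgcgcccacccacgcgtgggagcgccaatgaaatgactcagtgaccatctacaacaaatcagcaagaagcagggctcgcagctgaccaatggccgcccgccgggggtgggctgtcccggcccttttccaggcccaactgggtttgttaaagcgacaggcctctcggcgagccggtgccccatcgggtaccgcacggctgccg

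The *TXNIP* window held 2 copies of CACGAG, starting at positions -88 and -77 from the transcription start, and together they formed the pattern CACGAGNNNNNCACGAG at bases 145996651 to 145996667 of chromosome 1. The letters of this pattern were chosen after reading the *TXNIP* promoter, and it occurred in 2 of 35116 RefSeq promoter windows (0.0057%), the other being that of *KCTD5*. The *ARRDC4* window held 1 CACGTG, starting at position -210. CACGTG was present in 7.26% of all windows and CACGAG in 6.78%. Promoter windows were matched for 7 of the 8 members, 13 windows in all. Among the others, a *GLRX2* window held CACGTG at position -171, a *TXNRD1* window held CACGAG at -120, and a *TXNRD2* window held it on the opposite strand at -155. The core of the antioxidant response element, searched as TGACNNNGC on both strands, was found in 13.3% of all windows, and among the members only in the 2 windows of *TXNRD1*. These matches describe letters in a window and do not show a bound site.

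*TXNIP* mRNA (hg38, chromosome 1, 145992425 to 145996631) was far higher in 6AN than in control throughout the time course. In control, the FPKM values at the 12 time points from 0 to 44 hr were 10.7, 14.1, 21.7, 13.6, 14.7, 14.7, 19.9, 30.0, 33.0, 28.7, 39.5, and 45.8. In 6AN, they were 84.5, 85.3, 86.5, 93.5, 92.4, 104, 90.7, 82.3, 97.5, 98.6, 97.3, and 102. The lowest 6AN library, at 28 hr, thus lay above the highest control library, at 44 hr. The mean level was 23.9 ± 11.4 FPKM (SD, n = 12 time points) in control and 92.9 ± 7.14 in 6AN, a ratio of means of 3.89. On the scale of log2(FPKM + 1), the difference of 6AN minus control averaged 2.05 ± 0.62 (SD over 12 time points), against a median of -0.033 over all 15339 loci, and it ranked at place 28 from the top. The distance between the conditions was not constant, since the 6AN to control ratio of FPKM was 7.88 at 0 hr and 2.22 at 44 hr.

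*ARRDC4* (chromosome 15, 97960702 to 97973838), the related alpha-arrestin, had a similar pattern at a lower level. Its control values from 0 to 44 hr were 1.24, 1.57, 2.66, 2.22, 1.89, 2.17, 2.74, 3.30, 3.12, 3.30, 3.18, and 3.51 FPKM. The 6AN values were 8.67, 8.43, 9.32, 9.83, 8.81, 10.4, 9.91, 9.04, 8.41, 8.003, 8.24, and 6.58 FPKM. As for *TXNIP*, the ranges did not overlap, with means of 2.57 ± 0.75 in control and 8.81 ± 1.02 in 6AN (SD, n = 12). The log2 difference averaged 1.48 ± 0.41 and ranked at place 75, and the FPKM ratio was 6.997 at 0 hr and 1.88 at 44 hr. These were the only members of the 8 whose 6AN libraries all lay above their control libraries, and none lay wholly below. Over all 15339 loci, 5.44% lay wholly above and 9.57% wholly below. When all 24 libraries were rescaled to 1 common median ratio, 1108 loci lay above and 1178 below in place of 834 and 1468, and *TXNIP* and *ARRDC4* were still above, with log2 differences of 2.10 and 1.52.

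**Figure D1:**
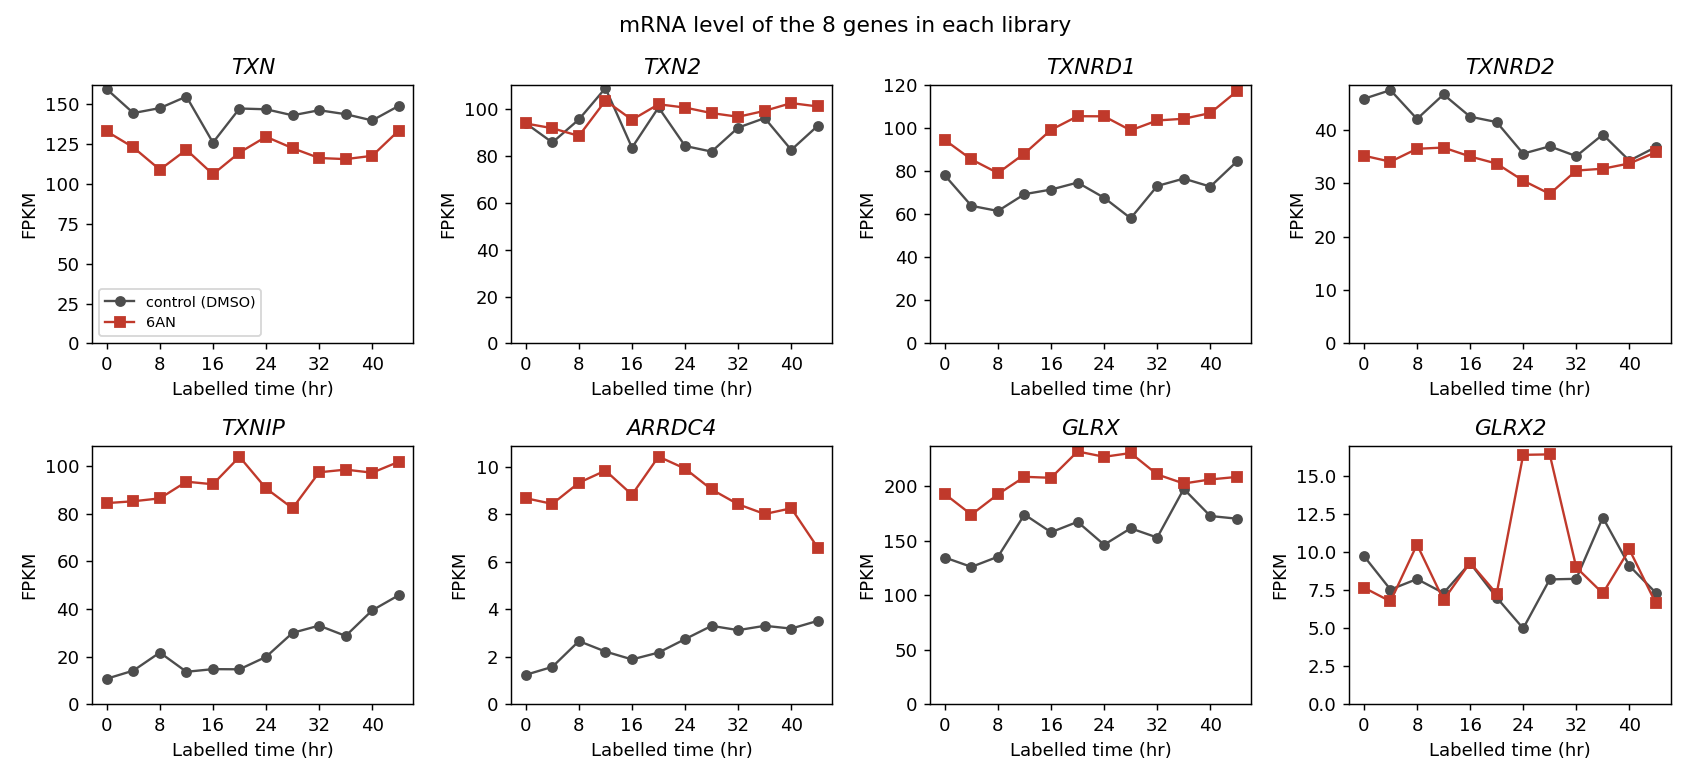
FPKM of the 8 genes (vertical axes, from 0) against labelled time in hr (horizontal axes), with 1 point per library, grey circles for control (DMSO) and red squares for 6AN. The 6AN points of *TXNIP* (82.3 to 104) and *ARRDC4* (6.58 to 10.4) lie above all control points (10.7 to 45.8 and 1.24 to 3.51), and the control points of both climb over the course.

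The reductases differed from each other. Counts of time points with the same direction are given here without their share over all loci. *TXNRD1*, the cytosolic enzyme, had control values between 58.2 (28 hr) and 84.6 FPKM (44 hr) with a median of 72.3, and 6AN values between 79.2 (8 hr) and 117 FPKM (44 hr) with a median of 102. It was higher in 6AN at 12 of 12 time points, although the ranges overlapped. The log2 difference averaged 0.47 ± 0.13 (SD, n = 12) and ranked at place 1237 from the top. *TXNRD2*, the mitochondrial enzyme, ranged from 34.2 to 47.4 FPKM in control with a median of 40.3, and from 27.99 to 36.7 FPKM in 6AN with a median of 33.8. Its level was lower in 6AN at 12 of 12 time points with a log2 difference of -0.25 ± 0.14. With libraries on a common scale, it was higher in 6AN at 2 time points and the mean difference was -0.19. The *TXNRD2* locus, as merged in the tables (hg38, chromosome 22, 19875517 to 20016786), overlaps *ARVCF* (mean FPKM 17.1), and since no source used here states whether strand was used in counting, reads at this locus may not be fully separated. The *TXNRD1* locus (chromosome 12, 104215778 to 104350307) overlaps only the low *EID3* (0.858).

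Between the thioredoxins, *TXN*, the cytosolic protein, was lower in 6AN at 12 of 12 time points. It ranged from 126 to 159 FPKM in control (median 146) and from 106 to 133 FPKM in 6AN (median 120), with the lowest value of both conditions at 16 hr, and the log2 difference was -0.27 ± 0.077 (SD, n = 12). *TXN2*, the mitochondrial thioredoxin, ranged from 81.7 to 109 FPKM in control and from 88.4 to 103 FPKM in 6AN. It was higher in 6AN at 9 of 12 time points. The log2 difference of *TXN2* was 0.10 ± 0.13 (SD, n = 12), between the quartiles of all loci (-0.27 and 0.18). With libraries on a common scale, it was higher at 10 of 12 time points and the difference was 0.15 ± 0.13.

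The glutaredoxins were less alike. *GLRX*, the cytosolic enzyme and in both conditions the most abundant member on average, ranged from 126 to 197 FPKM in control (median 160) and from 174 to 232 FPKM in 6AN (median 208). It was higher in 6AN at 12 of 12 time points, by 0.40 ± 0.16 on the log2 scale, although at 36 hr the values were 197 and 202 FPKM. *GLRX2*, which is found mainly in mitochondria, ranged from 4.99 to 12.3 FPKM in control and from 6.64 to 16.5 FPKM in 6AN. Its 6AN libraries at 24 and 28 hr stood apart at 16.4 and 16.5 FPKM, while the other ten were at most 10.5, and the control library at 24 hr was the lowest of all at 4.99. With 7 of 12 time points higher and a log2 difference of 0.15 ± 0.58, no direction was clear for *GLRX2*.

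**Figure D2:**
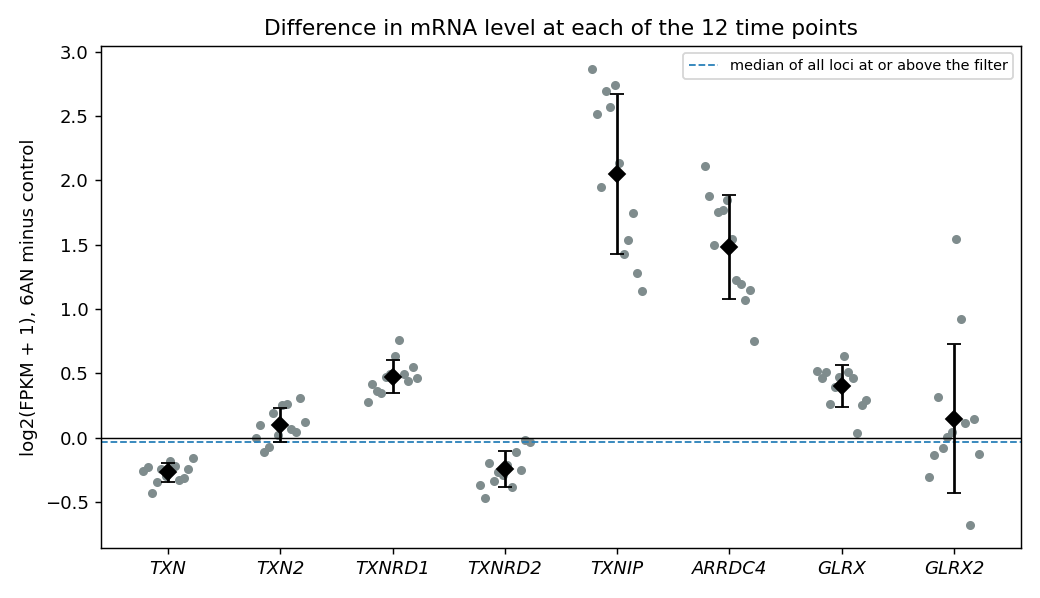
Difference in log2(FPKM + 1), 6AN minus control (vertical axis), for each of the 8 genes (horizontal axis), with grey points for the 12 time points in order from left to right, black diamonds and bars for mean ± SD, and a dashed line for the median of all 15339 loci (-0.033). *TXNIP* (2.05) and *ARRDC4* (1.48) lie far above the rest, whose means run from -0.27 to 0.47, and their last points (1.14 and 0.75) are their lowest.

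The order of the members by mean FPKM in control was *GLRX* (158), *TXN* (145), *TXN2* (91.4), *TXNRD1* (71.1), *TXNRD2* (40.3), *TXNIP* (23.9), *GLRX2* (8.28), and *ARRDC4* (2.57). *GLRX* and *TXN* were within each other's spread, with ranges of 126 to 197 and 126 to 159, while the ranges of *TXN2* and *TXNRD1*, of *TXNRD2* and *TXNIP*, and of *TXNIP* and *GLRX2* overlapped in part, and those of the other neighbours were separate. In 6AN, the order was *GLRX* (208), *TXN* (120), *TXNRD1* (99.2), *TXN2* (97.7), *TXNIP* (92.9), *TXNRD2* (33.7), *GLRX2* (9.54), and *ARRDC4* (8.81). The means of *TXNRD1*, *TXN2*, and *TXNIP* differed there by less than the SD of *TXNRD1* (10.6), and *GLRX2* and *ARRDC4* differed by less than the SD of *GLRX2* (3.49). The ranges of *TXN* and *TXNRD1* overlapped in part, and those of the other neighbours were separate. By its mean, *TXNIP* thus stood below *TXNRD2* in control and beside *TXN2* and *TXNRD1* in 6AN.

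Ratios of 2 members within the same library do not depend on how the tables were scaled and are given as a description. The ratio of *TXNIP* to *TXN*, the protein its product binds, ran from 0.0674 to 0.308 (median 0.142) in control and from 0.637 to 0.873 (median 0.783) in 6AN, with no overlap. *TXN* to *TXN2*, the cytosolic to the mitochondrial thioredoxin, ran from 1.42 to 1.75 (median 1.59) in control and from 1.11 to 1.42 (median 1.22) in 6AN. These ranges touched but did not overlap, and the ratio was lower in 6AN at every time point, by 0.37 ± 0.093 on the log2 scale (log2 difference -0.37, SD over 12 time points). For the reductases, *TXNRD1* to *TXNRD2* ran from 1.35 to 2.30 in control and from 2.17 to 3.54 in 6AN and was higher in 6AN at 12 of 12 time points, with an overlap of the ranges. *TXNIP* to *ARRDC4* was 6.15 to 13.1 in control and 9.11 to 15.5 in 6AN, higher at 11 of 12 time points by 0.27 ± 0.22, a small change beside the 2.05 and 1.48 of the genes themselves. *GLRX* to *GLRX2* followed the scatter of *GLRX2*, with ranges of 13.8 to 29.3 and 13.8 to 31.9.

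**Figure D3:**
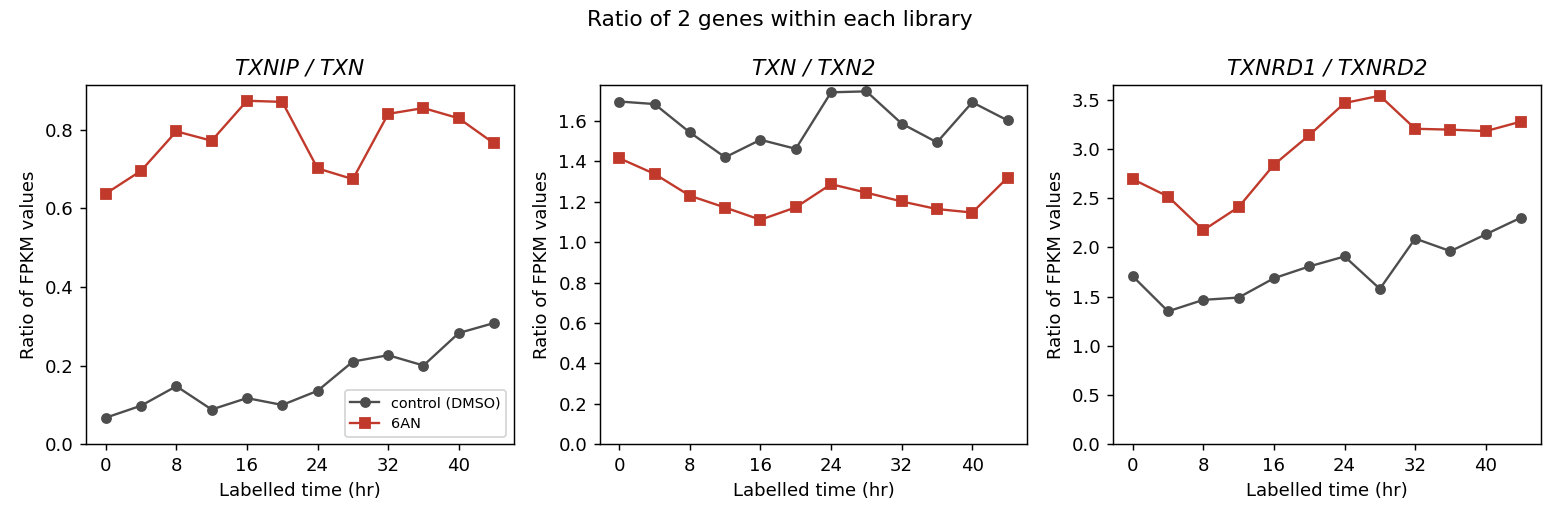
Ratio of FPKM values of 2 genes in the same library (vertical axes, from 0) against labelled time in hr (horizontal axes), with grey circles for control (DMSO) and red squares for 6AN. The ratio of *TXNIP* to *TXN* stays at 0.637 or above in 6AN and at 0.308 or below in control, *TXN* to *TXN2* is lower in 6AN throughout, and *TXNRD1* to *TXNRD2* is higher.

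Change over time was then tested within each table with limma, as the slope of log2(FPKM + 1) per 24 hr in a fit with a 24 hr cosine, with Benjamini-Hochberg adjustment over all 15339 loci and a threshold of 0.05. In control, *TXNIP* and *ARRDC4* rose and *TXNRD2* fell. *TXNIP* rose by 1.10 ± 0.13 log2 units per 24 hr (SE; limma adjusted p = 0.0027), so that its mean went from 14.9 FPKM over the first 6 time points to 32.8 over the last 6, a ratio of 2.20. *ARRDC4* rose by 0.53 ± 0.071 (limma adjusted p = 0.00409), from 1.96 to 3.19 FPKM, and its 6 late libraries all lay above its 6 early ones. *TXNRD2* had a slope of -0.26 ± 0.046 (limma adjusted p = 0.0128), from 44.3 to 36.3 FPKM, with all late libraries below all early ones. Over all loci, 2.29% rose and 2.63% fell in control, against 2 and 1 of the 8 members. Of the other five, *GLRX* had a slope of 0.16 ± 0.057 (unadjusted p = 0.0198; limma adjusted p = 0.164), and *TXN*, *TXN2*, *TXNRD1*, and *GLRX2* had slopes between -0.076 and 0.039 with limma adjusted p of at least 0.621.

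In 6AN, the slope of 1 member passed the test. *TXNRD1* rose by 0.20 ± 0.033 per 24 hr (SE; limma adjusted p = 0.00297), from a mean of 92.1 FPKM over the first 6 time points to 106.2 over the last 6. Trends were frequent in this condition, with 9.83% of all loci rising and 11.8% falling. Compared as the mean of the last 6 minus that of the first 6 time points, the change of *TXNRD1* was 0.21 with a limma adjusted p of 0.0509 and missed the threshold. *TXNIP* had a slope of 0.074 ± 0.040 (limma adjusted p = 0.227) and *ARRDC4* of -0.14 ± 0.082 (limma adjusted p = 0.257). The slope of *TXNRD2* was -0.11 ± 0.047 (limma adjusted p = 0.126), and without the 44 hr libraries it was -0.17 with a limma adjusted p of 0.0128. *TXN2* likewise passed the test only without the 12 hr libraries, with a slope of 0.082 in place of 0.053 (limma adjusted p = 0.0388 in place of 0.264).

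The difference of slopes between conditions was tested in a fit over all 24 libraries, in which a constant offset between the tables falls into the condition term. For *TXNIP*, the slope in 6AN was lower than in control by 1.03 log2 units per 24 hr (difference -1.03 ± 0.14 SE, limma adjusted p = 0.000225). For *ARRDC4*, the difference was -0.67 ± 0.11 (limma adjusted p = 0.000909). Both remained past the threshold under the 18 alternatives computed for the difference, at -1.10 to -0.93 for *TXNIP* and -0.89 to -0.57 for *ARRDC4*. The slope alone and the last 6 minus the first 6 time points were not among these alternatives. The slopes of 2.99% of all loci were higher and those of 4.23% lower in 6AN than in control, against 0 and 2 of the 8 members. For *TXNRD1* the difference was 0.16 ± 0.076 (unadjusted p = 0.0484; limma adjusted p = 0.231) and for *TXNRD2* 0.15 ± 0.068 (unadjusted p = 0.0387; limma adjusted p = 0.205), so that the slope of *TXNRD1* in 6AN and that of *TXNRD2* in control were not shown to differ between conditions.

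**Figure D4:**
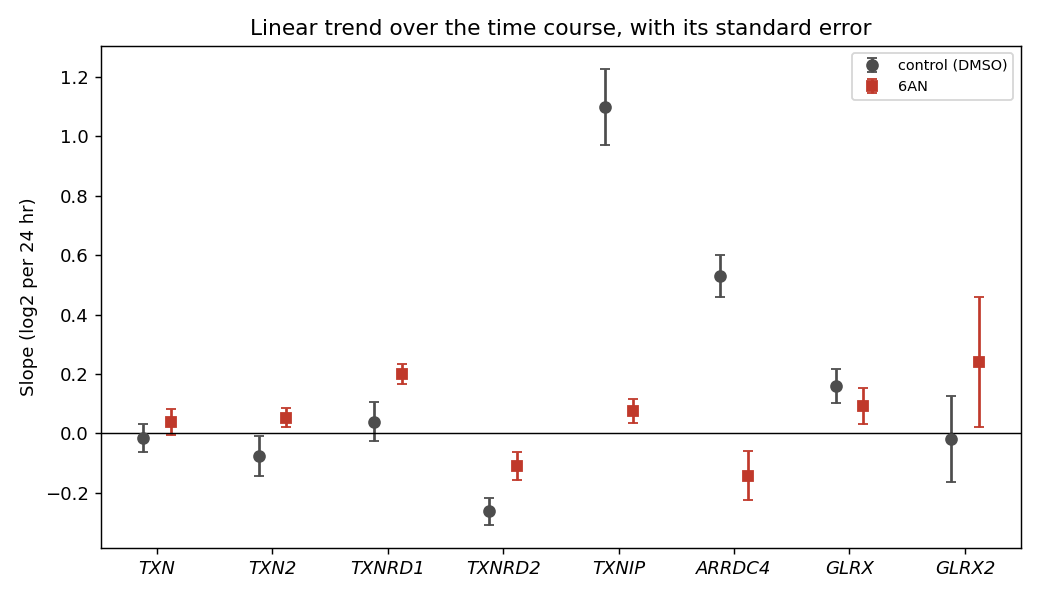
Slope of log2(FPKM + 1) per 24 hr with its standard error (vertical axis) for the 8 genes (horizontal axis), with grey circles for control (DMSO) and red squares for 6AN. *TXNIP* (1.10 against 0.074) and *ARRDC4* (0.53 against -0.14) have widely separate slopes, while the slopes of the other genes lie between -0.26 and 0.24 in both conditions.

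Rhythms of 24 hr were tested in the same fits. By limma, 0 members passed the adjusted threshold in control and 0 in 6AN. At an unadjusted p under 0.05 there were 0 in control and 2 in 6AN, *TXNRD1* with an amplitude of 0.10 log2 units and a fitted peak at 21.01 hr (unadjusted p = 0.00608; limma adjusted p = 0.465) and *TXN* with an amplitude of 0.11 (unadjusted p = 0.0283; limma adjusted p = 0.596). The test called few loci of any kind, 0.00652% in control (1 locus) and 0% in 6AN. A difference of rhythm between conditions was called for 0.0717% of all loci and for 0 members, and *TXNIP* was the member with an unadjusted p under 0.05 (amplitude of the difference 0.34; unadjusted p = 0.0199; limma adjusted p = 0.735).

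Similarity over time was measured as Pearson's r of log2(FPKM + 1), centred within each table, over the 24 libraries, which share their culture series and scaling. The 3 loci most like *TXNIP* were *CHAC1* (r = 0.914), which encodes an enzyme that degrades glutathione, *H6PD* (0.865), the hexose-6-phosphate dehydrogenase of the endoplasmic reticulum, and *TBC1D8* (0.861). Within control alone, *CHAC1* and *TXNIP* had an r of 0.924 over 12 libraries, and within 6AN 0.723. *CHAC1* ranged from 3.76 to 21.4 FPKM in control and from 14.3 to 23.02 FPKM in 6AN and was higher in 6AN at 12 of 12 time points. In control it rose by 1.29 ± 0.16 log2 units per 24 hr (limma adjusted p = 0.00278), and in 6AN its slope was 0.21 (limma adjusted p = 0.0533). These 3 loci were chosen for their likeness to *TXNIP* in the same libraries. Their r within control and a rise in control are thus largely set by that choice and are no separate evidence. *H6PD* and *TBC1D8* followed *TXNIP* in control (r of 0.925 and 0.915) but not in 6AN (-0.0041 and 0.16). *ARRDC4* was similar, with r of 0.914 in control and -0.22 in 6AN. For *TXNRD1*, the 3 most similar loci were *WDR43* (0.866), *PITPNB* (0.844), and *SLC7A1* (0.824), the cationic amino acid transporter, which was higher in 6AN at 12 of 12 time points (28.7 to 36.4 against 16.2 to 22.5 FPKM).

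Most relatives of the thioredoxins had lower levels in 6AN. Of 18 other genes of the thioredoxin fold and glutaredoxin families, 7 lay wholly below control and 0 above, with a median log2 difference of -0.28 (9.57% wholly below and a median of -0.033 over all loci). On a common scale, 5 lay below and the median was -0.22. Of those wholly below before rescaling, *TMX2* and *TXNDC5* were read from loci merged with other genes (*CTNND1* for the former, *BLOC1S5* and *EEF1E1* for the latter). The values of these merged loci cannot be assigned to a single gene. The differences were largest for *TXNDC17*, a cytosolic thioredoxin-related protein (-0.66), and *TXNDC9* (-0.65). In the trend tests, the membrane-bound thioredoxin *TMX4* rose in control (0.33 per 24 hr, limma adjusted p = 0.00879) and had a lower slope in 6AN (difference -0.27, limma adjusted p = 0.0343). In 6AN, *GLRX3* rose (0.24, limma adjusted p = 0.0128) and *GLRX5*, the mitochondrial glutaredoxin of iron-sulfur cluster assembly, fell (slope -0.23, limma adjusted p = 0.0434). Of the 18 genes, 1 rose and 0 fell in control (2.29% and 2.63% of all loci). In 6AN, 1 rose and 1 fell, beside 9.83% and 11.8% of all loci. The slope was higher in 6AN for 0 and lower for 1 (2.99% and 4.23% of all loci).

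Among 15 clients of thioredoxin, 5 lay wholly below control and 0 above, with a median log2 difference of -0.21 (9.57% below and -0.033 over all loci). On a common scale, 4 lay below and the median was -0.17. Ribonucleotide reductase, which takes electrons from thioredoxin to make deoxyribonucleotides, stood out, with *RRM2* at -1.77 (73.8 FPKM in control and 21.5 in 6AN) and *RRM1* at -0.84. Both also fell within the 6AN course, with slopes of -0.56 (limma adjusted p = 0.000333) and -0.37 (limma adjusted p = 0.00693). *RRM2B*, the p53-inducible small subunit, rose instead, by 0.49 in 6AN (limma adjusted p = 0.000489) and by 0.13 in control (limma adjusted p = 0.0365). The difference of slopes passed the test for *RRM2* (-0.57, limma adjusted p = 0.000253) and *RRM2B* (0.35, limma adjusted p = 0.00217). It also did so for the methionine sulfoxide reductase *MSRB3* (0.42, limma adjusted p = 0.00365). Of the remaining members called, the peroxiredoxin *PRDX1* fell in both conditions (slopes of -0.28 and -0.20, limma adjusted p = 0.0177 and 0.0142), and *PRDX5*, *APEX1*, *MSRB2*, and *MSRB3* rose in 6AN by 0.17, 0.10, 0.28, and 0.34 (limma adjusted p of at most 0.0447). Of the 15 clients, 1 rose and 1 fell in control (2.29% and 2.63% of all loci). In 6AN, 5 rose and 3 fell, beside 9.83% and 11.8% of all loci. The slope was higher in 6AN for 2 and lower for 1 (2.99% and 4.23% of all loci).

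The list of alpha-arrestins and of glucose-sensing genes had 10 of its 12 members above the filter, and *ARRDC5* and the ChREBP gene *MLXIPL* were listed at 0 in all control libraries. Of the 10, *HK2*, the hexokinase of proliferating cells (0.91), and *ARRDC2* (0.48) lay wholly above control, 0 lay below, and the median was 0.24 (5.44% above and -0.033 over all loci). On a common scale, 3 lay above and the median was 0.29. The second-largest difference was that of *ARRDC1* (0.64). Slopes in 6AN were higher than in control for *HK2* (difference 0.26, limma adjusted p = 0.0135) and for the glucose transporter gene *SLC2A1* (0.34, limma adjusted p = 0.0081). *HK2* and *SLC2A1* rose in 6AN by 0.38 and 0.20 per 24 hr (limma adjusted p = 0.000253 and 0.00613). *DDIT4*, an inhibitor of mTORC1 signalling, rose in both conditions, by 0.61 in control and 0.73 in 6AN (limma adjusted p = 0.009 and 0.00279), while *KLF10* fell in both, with slopes of -0.27 and -0.21 (limma adjusted p = 0.0216 and 0.0221). *SLC2A3* rose in control (0.35, limma adjusted p = 0.00347). *ARRDC1* and *MLXIP*, which encodes MondoA, fell in 6AN with slopes of -0.21 and -0.20 (limma adjusted p = 0.0192 and 0.0182). *MLXIP* itself was at 12.9 FPKM in control and 15.3 in 6AN, and its partner *MLX* at 18.0 and 17.9. Of the 10 genes above the filter, 2 rose and 1 fell in control (2.29% and 2.63% of all loci). In 6AN, 3 rose and 3 fell, beside 9.83% and 11.8% of all loci. The slope was higher in 6AN for 2 and lower for 0 (2.99% and 4.23% of all loci).

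NRF2 targets were divided. Of 17 other genes of this list, 7 lay wholly above control and 1 below, with a median log2 difference of 0.19 (5.44% above, 9.57% below, and a median of -0.033 over all loci). On a common scale, the counts were the same and the median was 0.24. *OSGIN1* (1.12) and *SRXN1*, the sulfiredoxin that repairs overoxidized peroxiredoxins (1.02), differed most, whereas *NQO1*, a much-used marker of NRF2 activity, was the gene below (-0.95, 40.9 FPKM in control and 20.6 in 6AN). By the limma trend test, *SQSTM1* and *SLC7A11* rose in control by 0.17 and 0.73 and *TKT*, the transketolase of the PPP, fell with a slope of -0.31 (limma adjusted p of at most 0.0419 for the 3 genes). In 6AN, *SRXN1*, *HMOX1*, *GSR*, *GCLC*, and *SLC7A11* rose by 0.34, 0.51, 0.15, 0.16, and 0.34, and *TKT* and *TALDO1* fell with slopes of -0.20 and -0.23 (limma adjusted p of at most 0.048 for the 7 calls, beside 9.83% of all loci rising and 11.8% falling). The differences of slopes gave limma adjusted p of at least 0.112 for the 17 genes.

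In the ChIP-seq files, *TXNIP* was the member assigned to a shared BMAL1/CLOCK site, 1 of 439 sites in 6AN, and 0 of the 147 sites in control were assigned to a member. The site (hg38, chromosome 1, 145996195 to 145997195) was annotated as promoter-TSS, 64 bases before the start, and it holds the CACGAG pair shown in capitals above. In the merged peak list, the interval 145996566 to 145996867 held BMAL1 and CLOCK peaks of both conditions. The absence of *TXNIP* from the 147 control sites is thus not an absence of control peaks there. Signal is the number of tags in 1000 bp scaled to 10000000 tags per library, and intervals are exact 95% Poisson intervals that cover counting error only. For BMAL1, the control library had 32.2 (20.6 to 47.9, from 24 tags) and the 6AN library 34.8 (23.1 to 50.5, from 27.5 tags). For CLOCK, these values were 38.0 (21.5 to 62.2, from 15.5 tags) and 56.0 (36.4 to 82.4, from 25.5 tags). For both factors, the intervals of the conditions overlapped. The log2 changes (pseudocount 1) were 0.11 for BMAL1 and 0.55 for CLOCK, where the medians of the 439 sites, which were called in 6AN libraries, were 0.46 and 1.10. Of the 439 sites, 343 had larger changes for BMAL1 and 373 for CLOCK. Input changed by -0.30 at this site and by 0.37 in the median over sites. Its intervals overlapped, at 8.84 to 16.7 in control (41 tags) and 4.61 to 18.4 in 6AN (9.5 tags). Once the log2 change of the input was taken off each site, the changes of 0.41 and 0.85 lay above the medians of 0.13 and 0.69. The place of this site relative to the medians thus depended on an input change within counting error.

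The histone marks at this site were higher in 6AN. H3K4me3, a mark of active promoters, was at 135.8 (98.5 to 183, from 43.5 tags) in control and at 226 (185 to 274, from 103.5 tags) in 6AN, so that the intervals did not overlap. H3K9ac was at 63.9 (29.2 to 121, from 9 tags) and at 136 (105 to 174, from 64 tags), with overlapping intervals. The log2 changes were 0.73 and 1.08, where the medians over the 439 sites were -0.036 and 0.15, and 50 and 48 of the 439 sites had larger changes. Less the change of the input, they were 1.03 and 1.38, against medians of -0.42 and -0.19. The input gave 12.3 in control, and 9.84 under 6AN. With a lone library per antibody and condition, these differences had no replicate check. Elsewhere in the merged list, intervals within 5000 bp of a member's locus held a CLOCK peak of the 6AN library at *TXN2* (chromosome 22, 36465155 to 36465355) and inside *TXNRD2* (chromosome 22, 19881264 to 19881464), and a BMAL1 peak of the 6AN library inside *GLRX* (chromosome 5, 95817547 to 95817747).

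**Figure D5:**
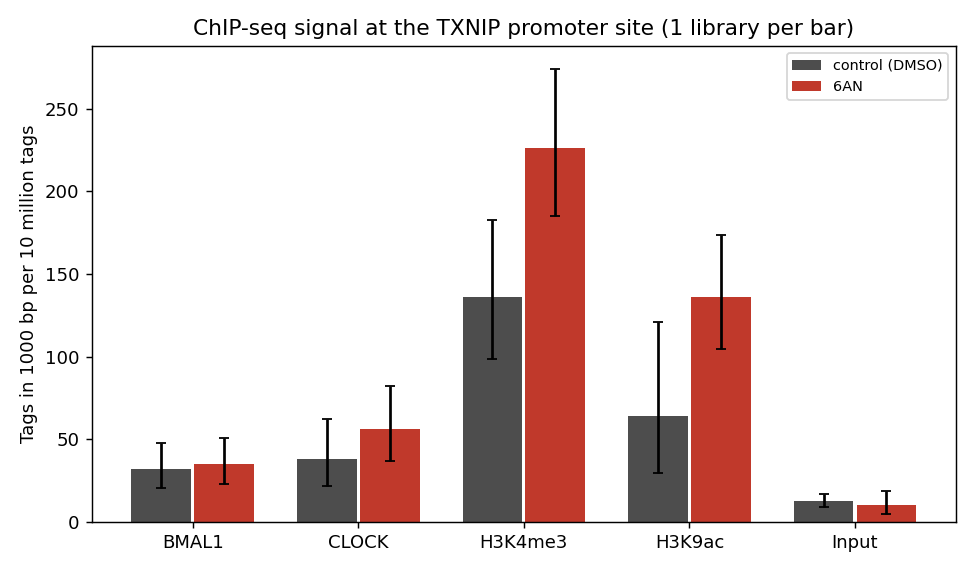
ChIP-seq signal at the *TXNIP* promoter site, in tags per 1000 bp and 10000000 tags (vertical axis, from 0), for each antibody and the input (horizontal axis), with grey bars for control (DMSO), red bars for 6AN, and exact 95% Poisson intervals as error bars (1 library per bar). The H3K4me3 bar is higher in 6AN (226 against 135.8) with separate intervals, while the intervals of BMAL1 (34.8 against 32.2) and CLOCK (56.0 against 38.0) overlap.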

How the data were processed

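RNA-seq was analysed in 24 libraries and ChIP-seq in 10. Expression was deposited as FPKM per locus, in a control table and a 6AN table that the authors normalized separately. They also deposited ChIP-seq signal, the tags in 1000 bp around each shared site scaled to 10000000 tags per library, and the score of each merged peak, for which only the presence of a peak was used. Submitters' processing notes name TopHat, Bowtie, Cufflinks, Bowtie2, HOMER, and hg38. All per-sample columns were used (0 left out).

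Members and gene lists were chosen with earlier results of these data known. Loci with a mean FPKM of at least 0.5 were kept, and log2(FPKM + 1) was fitted with limma 3.58.1 (R 4.3.3) on time and a 24 hr cosine within each table, and with interactions over both tables. Fold changes on this scale understate those of low genes. Moderated tests used an intensity trend, and Benjamini-Hochberg adjusted p of at most 0.05 was called. Libraries of 1 culture series were treated as independent. Extraction was in triplicate by the study's methods, but pooling of the extracts is not given in the sources used here. Levels, ratios, and motifs were computed with Python 3.11.15, NumPy 2.4.6, and pandas 2.3.3, intervals with SciPy 1.17.1, and plots with matplotlib 3.10.9. Relative depth came from loci above 0 in 2 to 4 libraries of a table, whose values were taken as close to a single read. It was the inverse of each library's typical level at these loci, found by repeated medians over libraries and loci. Tag numbers can be fractions, since each mate of a read pair counts 0.5.

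Some items that the rule would name are not reported here. Genes named were the 8 members, from each list those called in a test and the 2 with the largest level difference (markers: as a group), the 3 loci most like *TXNIP* and *TXNRD1*, and sites assigned to a member. Some further genes were named only because their locus is merged with that of another gene. The fits were tested on simulated data with 15339 loci and 200 changed ones, of which the 6AN trend test called 131 with 7 unchanged ones and the control rhythm test 116 with 5. The test for a difference of trend called 114 with 9 unchanged ones, and that for a difference of rhythm 96 with 5. Alternatives covered the pseudocount, filters, scaling, the spread model, the form of trend and cosine (within a condition only), a block by time point (for differences only), and leaving out each time point.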

Additional observations from a re-analysis of the deposited data

Results flagged for a closer look

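The trend over time differed between conditions for *TXNIP* and *ARRDC4*, by the limma interaction test. For *TXNIP*, the slope in 6AN minus that in control was -1.03 log2 units per 24 hr (limma adjusted p = 0.000225), with control libraries going from 10.7 to 45.8 FPKM while 6AN libraries stayed between 82.3 and 104. For *ARRDC4*, it was -0.67 (limma adjusted p = 0.000909), with control libraries going from 1.24 to 3.51 FPKM and 6AN libraries between 6.58 and 10.4. For a test of single outlying samples, the RNA-seq conditions hold too many libraries and the ChIP-seq conditions too few.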

How the results depend on the processing

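Trend and rhythm results of the 8 members were computed under alternatives 896 times, and 885 kept their side of the threshold and, for trends, their direction. A rhythm amplitude has no direction. Since the rhythm tests called few loci of any kind, agreement of the rhythm results was nearly assured. *TXNIP*, *ARRDC4*, and *TXNRD2* passed in control, and *TXNIP* and *ARRDC4* for the difference, under all alternatives computed for that test. Other forms of the trend were not computed for the difference. The block by time point gave the same 2 members for the difference (*TXNIP* -1.03, limma adjusted p = 0.00222, and *ARRDC4* -0.67, limma adjusted p = 0.00154) and changed no call of a member. As the last 6 minus the first 6 time points, 465 loci in place of 756 had a trend in control, and 0 members in place of 1 in 6AN. Uncalled control slopes changed sign for *GLRX2* with the slope alone (0.035) and when a time point was left out for *TXN* (range -0.0625 to 0.0186), *TXNRD1* (-0.0021 to 0.107), and *GLRX2* (-0.112 to 0.142). The cosine alone and a period of 28 hr gave 0 loci with a rhythm in control in place of 1, and with no filter 7 loci differed in rhythm in place of 11. Without 1 time point, loci called were 447 to 666 for the trend in control, 2113 to 3284 in 6AN, and 706 to 1046 for the difference, and 0 to 2 for the rhythm in control, 0 to 0 in 6AN, and 6 to 13 for the difference, while the members with a trend in 6AN were 1 to 2. With the log2 change of the input taken off, the log2 changes at the *TXNIP* site were 0.41 in place of 0.11 for BMAL1, 0.85 in place of 0.55 for CLOCK, and 1.03 in place of 0.73 for H3K4me3. Members' level differences and ratios moved by less than their SD over time points. The low counts of tags at the *TXNIP* site (9 in the control H3K9ac library and 9.5 in the 6AN input library) limit its ChIP-seq comparisons.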
